A study of Mus musculus with 30 samples.

Results

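The 9 genes followed here, Pax6, Hes1, Hes5, Sox2, Sox9, Fabp7, Vim, Nes and Notch1, are regulators and markers of radial glia. They were listed by name as genes of this cell type, with earlier results of these data known, and no measured value set which genes are members. For each gene the probe set that names it and no other gene was used, and where several did, the one with the highest mean signal in its table. All 9 were measured at both stages, among 18194 genes in the embryo (E14.5) and 19938 genes just after birth (P0.5).

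Radial glia are the neural stem cells of the developing cortex. Their cell bodies line the ventricle, their long fibres guide newborn neurons to the cortical plate, and they give rise to neurons, directly or through intermediate progenitors, and around birth to astrocytes and ependymal cells. Notch signalling between neighbouring cells keeps them in the progenitor state: the cleaved Notch receptor and its DNA-binding partner Rbpj switch on the repressors Hes1 and Hes5, which hold back genes of neuronal differentiation.

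The samples were 30 mouse tissues of the CD1 strain, each hybridised to an Affymetrix microarray. KO animals were homozygous for a null allele of Tbr1, the T-box factor of early-born cortical neurons, and came from crosses of heterozygotes; they lacked the gene in every cell and not only in the cortex. WT animals carried no mutant allele. Embryonic neocortex was measured in 3 KO and 3 WT samples, and newborn tissue in 4 KO and 4 WT samples of each of 3 regions: frontal, parietal and occipital. The labels do not state sex. Nor do they tie an array to an animal, so the p-values measure the spread between these samples, which may be technical.

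Values are log2 signals as deposited, and the stages, which lie on different array types, were fitted apart. The number of arrays limits the precision. Tbr1 itself was at 8.69, 7.23 and 7.57 in E14.5 KO arrays, against 9.36, 8.89 and 9.11 in WT arrays, and KO replicate 1 was close to the WT range. Newborn KO arrays were all below the WT arrays of their region. Whether its probe set lies in the deleted part of the gene was not given in the sources used here. Of 6 listed genes that mark cortical identity, 4 were measured under those names, and their median signals at P0.5 were 8.47 (Emx1), 9.81 (Bcl11b), 10.15 (Neurod2) and 11.51 (Neurod6). At E14.5 the log2 of their summed signal was lower in KO arrays (10.80 to 11.46) than in WT arrays (11.64 to 12.39). At P0.5 this sum was also lower in KO arrays of frontal tissue (12.29 to 12.50, against 12.62 to 12.73 in WT). In occipital tissue it was 12.08 to 12.15 in KO and 12.16 to 12.34 in WT arrays. The parietal ranges overlapped, at 12.28 to 12.51 in KO and 12.34 to 12.67 in WT. The log2 of the summed signal of 7 choroid plexus genes was 12.30 to 13.38 in E14.5 KO arrays and 10.24 to 13.06 in WT arrays. What set KO and WT tissues apart in these sums was not tested. The E14.5 KO arrays resembled their own group less (mean correlation over genes 0.957 to 0.973) than the WT arrays did (0.989 to 0.991). Meningeal and fibroblast markers varied between arrays: the log2 of the summed signal of 7 such genes was 13.53, 13.80 and 11.99 in E14.5 KO arrays, against 11.41 to 11.52 in WT arrays, and lay between 10.26 and 13.03 at P0.5. The mean log2 signal of 3 Y-linked genes was 5.09 to 5.99 in the 4 frontal KO arrays, against 8.99 to 9.15 in the 4 frontal WT arrays, so sex and genotype cannot be told apart in frontal tissue. In parietal tissue that mean was 7.23 ± 2.13 in KO and 8.31 ± 1.70 in WT arrays, and in occipital tissue 8.35 ± 1.65 and 9.32 ± 0.13 for KO and WT (SD, n = 4 each).

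Promoter windows of 250 bases before the transcription start were taken from RefSeq (GRCm38.p6), where 7 of the 9 genes had an entry. Hes1 and Sox9 had none, so their promoters were not searched for any motif. The windows of Hes5, a textbook target of Notch, and of Fabp7, a gene with a called difference in 3 of the comparisons, are shown so that they can be set beside the values. Capitals mark matches, on either strand, to the Rbpj-type motif GTGGGAA or its core TGGGAA, which it contains, and to the Hes-type N box CACNAG.
Hes5 (chr4:154960673-154960922, plus strand): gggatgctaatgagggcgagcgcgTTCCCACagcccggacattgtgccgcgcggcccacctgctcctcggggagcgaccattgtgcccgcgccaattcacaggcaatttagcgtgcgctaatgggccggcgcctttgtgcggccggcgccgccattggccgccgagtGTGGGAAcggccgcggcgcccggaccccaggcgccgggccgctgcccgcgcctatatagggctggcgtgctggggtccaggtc
Fabp7 (chr10:57784673-57784922, plus strand): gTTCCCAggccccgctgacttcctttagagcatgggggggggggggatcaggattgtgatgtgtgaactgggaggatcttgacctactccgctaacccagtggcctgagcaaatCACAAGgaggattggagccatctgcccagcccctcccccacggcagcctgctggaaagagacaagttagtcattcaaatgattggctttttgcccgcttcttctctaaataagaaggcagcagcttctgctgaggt
The Hes5 window held 2 matches to GTGGGAA, at 226 to 220 bases before the start on the minus strand and at 83 to 77 bases on the plus strand. It was the only window among the 7 genes with a match to that motif, which occurs in 5.415% of 32851 mouse promoters of this length. The Fabp7 window held TGGGAA on the minus strand, 249 to 244 bases before the start, and CACAAG on the plus strand, 136 to 131 bases before it. TGGGAA occurs in 21.59% and CACNAG in 36.67% of all these promoters, so such a match is common. CACNAG also occurred in the windows of Vim and Notch1 and in 1 of the 2 windows of Pax6. A match is a string of letters and does not show that a factor binds there.

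In E14.5 neocortex none of the radial glia genes passed the test between KO and WT. The call rate over all genes was 0% (0 of 18194 genes in limma at an adjusted p under 0.05), and 1048 genes had an unadjusted p under 0.05. The differences of the 9 genes ran between -0.53 for Fabp7 and 0.32 for Vim on the log2 scale, with a median of 0.07, against a median of 0.06 over all genes. In bulk tissue, fewer cells of a type and less RNA per cell cannot be told apart.

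Vim, the intermediate filament vimentin of radial fibres and of mesenchymal cells, was at 12.19, 12.37 and 12.04 in KO arrays, against 11.79, 11.96 and 11.90 in WT arrays. The groups did not overlap. The difference was 0.32 (SE 0.114), which missed the threshold (limma adjusted p = 0.858), and 7.43% of all genes had every KO array above every WT array. All 3 Vim probe sets gave a difference of this size (0.28 to 0.33). Meningeal markers were also higher in the KO arrays, and their part in the Vim difference was not tested.

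Pax6, the paired-box factor that marks cortical radial glia and promotes neuron formation, was at 6.72, 8.89 and 8.23 in KO arrays, against 7.89, 8.04 and 7.89 in WT arrays. The KO arrays lay on both sides of the tightly grouped WT arrays, and the difference was 0.01 (SE 0.496). The dimmer Pax6 probe sets, at mean signals of 5.06 to 5.67, gave 0.38, -0.07, 0.43 and 0.05, so the mean difference varied between probe sets. Their signals lay near the E14.5 array medians (5.12 to 5.15). The probe set at 0.43 had the layout of the one used, with 4.85, 6.74 and 6.01 in KO arrays, against 5.36, 5.43 and 5.51 in WT arrays. Fabp7, the brain lipid-binding protein of radial glia and young astrocytes, was at 7.83, 10.08 and 9.52 in KO arrays and at 10.004, 9.40 and 9.62 in WT arrays. KO replicate 1 was the lowest array for both genes. Without it the difference was 0.62 for Pax6 (limma adjusted p = 0.659) and 0.12 for Fabp7 (adjusted p = 0.944), and without KO replicate 2 it was -0.47 for Pax6 and -0.998 for Fabp7 (adjusted p = 0.797 and 0.679). The sign of both differences thus turned on which KO array was in the fit.

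Nes, the filament protein nestin of neural stem cells, was at 9.48, 9.58 and 9.51 in KO arrays, against 10.20, 10.11 and 9.51 in WT arrays. WT replicate 3 was as low as the KO arrays, and the difference was -0.41 (SE 0.209, limma adjusted p = 0.884). The 2 dimmer Nes probe sets gave 0.04 and -0.05, so the probe sets disagree. The SRY-box factors Sox2, which maintains neural stem cells, and Sox9, which acts in stem cells and astrocytes, differed by -0.06 (SE 0.211) and 0.15 (SE 0.210). Of the Notch pathway members, Notch1, the receptor, differed by 0.07 (SE 0.152), Hes1 by 0.29 (SE 0.272) and Hes5 by 0.18 (SE 0.191), and all 3 overlapped between KO and WT arrays. Same-numbered E14.5 arrays varied together, though the labels do not state pairs. Taken as pairs, Vim, Hes1, Sox9 and Notch1 were higher in KO in 3 of 3 pairs. The share of all genes with this layout is not given here, so the count cannot be weighed. The median difference over all genes was itself above 0, at 0.06. Hes1 was higher by 0.25, 0.17 and 0.45 in the 3 pairs and Notch1 by 0.04, 0.10 and 0.07. With the pairs as a block none of the 9 was called (limma adjusted p = 0.569 for Vim, 0.72 for Hes1 and 0.91 for Notch1).

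**Figure D1:**
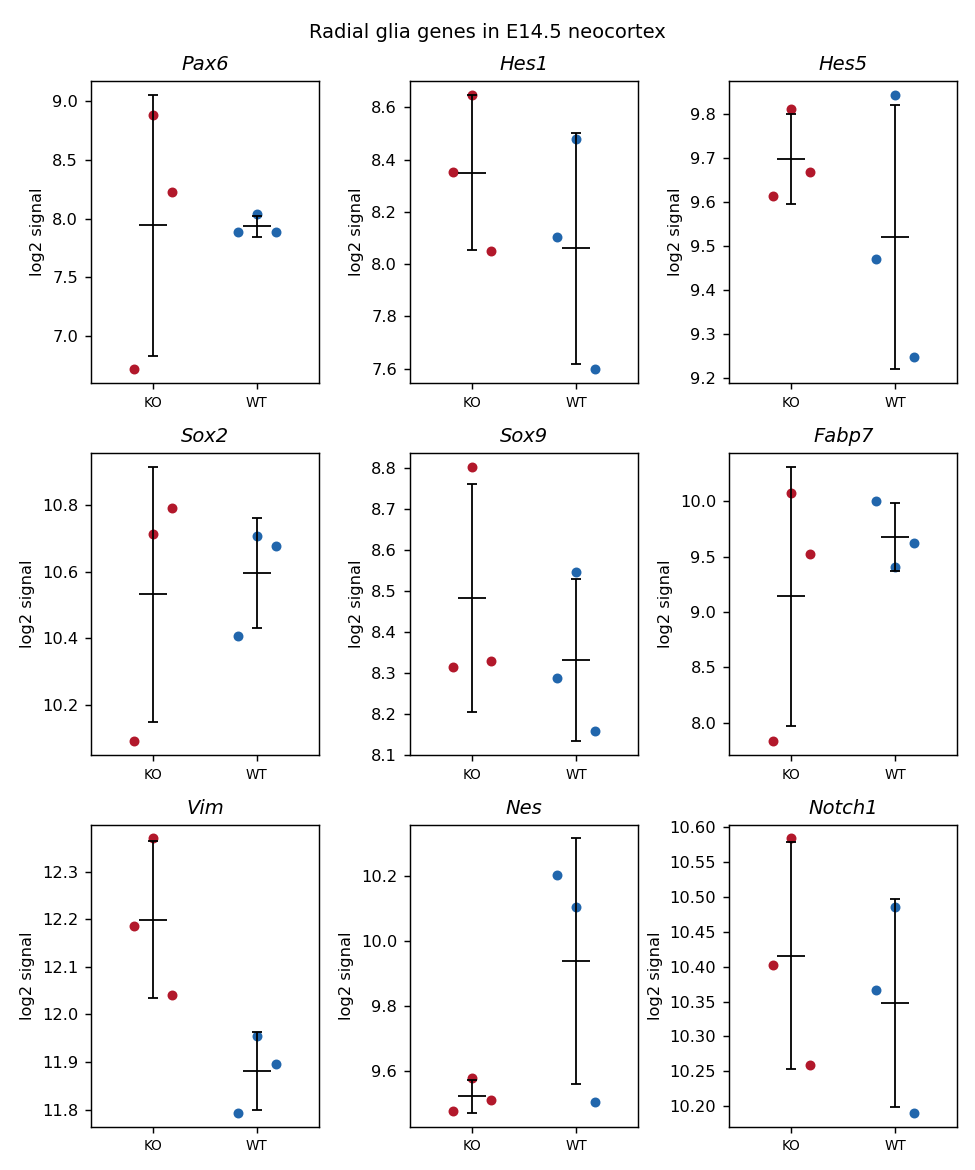
Log2 signal of the 9 radial glia genes in E14.5 neocortex, with 1 point per array (3 KO left, 3 WT right), the mean as a horizontal bar and ±1 SD. Vim is the gene whose KO arrays (12.04 to 12.37) all lie above its WT arrays (11.79 to 11.96), and Pax6 and Fabp7 each have KO replicate 1 far below the other arrays.

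At P0.5, averaged over the 3 regions, 4 of the 9 genes were higher in KO and none was lower: Pax6, Hes1, Sox2 and Fabp7. Of these, Pax6 and Hes1 were also called when arrays were not averaged by number. Over all genes 7.46% were called and 4.71% were called higher in KO (limma, adjusted p under 0.05). Here the 3 regional arrays that carry the same number within a genotype were averaged into 1 value, which gave 4 KO and 4 WT values per gene. The number alone defines these sets: the Y-linked mean spanned over 3 log2 units among the 3 arrays of 4 of 4 KO numbers and 1 of 4 WT numbers, so same-numbered arrays are not all of 1 animal. The median difference was 0.14 for the 9 genes and -0.01 for all genes, and 8 of the 9 differences were positive.

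Pax6 averaged 8.49, 8.47, 8.61 and 8.51 over the regions in KO, against 8.35, 8.11, 8.21 and 8.03 in WT. Every KO value lay above every WT value, and the difference was 0.34 (SE 0.064, limma adjusted p = 0.0037), or 1.27-fold. Hes1 was at 8.06, 8.11, 7.90 and 8.19 in KO and at 7.79, 7.65, 7.71 and 7.84 in WT. Its groups did not overlap either, with a difference of 0.32 (SE 0.065, adjusted p = 0.00655). Sox2 was at 9.95, 9.85, 9.82 and 9.98 in KO, against 9.71, 9.71, 9.71 and 9.58 in WT. All 4 KO values were above all WT values by a small margin, a difference of 0.22 (SE 0.050, adjusted p = 0.0131), or 1.16-fold.

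Fabp7 was at 12.32, 12.03, 12.35 and 12.31 in KO, against 12.07, 12.10, 11.97 and 11.86 in WT. KO replicate 2 fell within the WT range, and the difference was 0.25 (SE 0.067, limma adjusted p = 0.0335). Sox9 was at 8.55, 8.55, 8.53 and 8.60 in KO and at 8.46, 8.41, 8.44 and 8.37 in WT. Its groups did not overlap, as for 7.21% of all genes in this direction, but the difference of 0.14 (SE 0.044) missed the threshold (adjusted p = 0.0755). The remaining 4 genes had differences between -0.01 and 0.11: Nes 0.11 (SE 0.069), Vim 0.05 (SE 0.104), Hes5 0.03 (SE 0.060) and Notch1 -0.01 (SE 0.067). The 95% interval for Hes5 ran from -0.10 to 0.16 and that for Notch1 from -0.15 to 0.14.

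Without averaging by number, as the mean of the 3 regional differences in the fit of all 24 arrays (an alternative chosen after seeing the data), Pax6 (SE 0.092, limma adjusted p = 0.0164), Hes1 (SE 0.066, adjusted p = 0.00177) and Sox9 (SE 0.042, adjusted p = 0.032) were called higher in KO. Sox2 (SE 0.095, adjusted p = 0.17) and Fabp7 (SE 0.084, adjusted p = 0.0573) were not, and 9.48% of all genes were called.

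In the fit of averaged values, the calls of Pax6 and Hes1 held when the arrays of any KO or WT number were left out. Sox2 was not called without KO number 1 (0.20, limma adjusted p = 0.0592) or KO number 4 (0.19, adjusted p = 0.0633), and Fabp7 was not called without KO number 1, 3 or 4 or WT number 3 or 4 (0.21 to 0.24, adjusted p = 0.0639 to 0.115). With the mean of the Y-linked genes as a covariate none of the 4 was called (Pax6 0.38, Hes1 0.42, Sox2 0.25 and Fabp7 0.25, adjusted p = 0.437 to 1.0), in a fit that called 71 genes in all. The fit of 24 arrays with that covariate called none of the 9 either (Hes1 0.29, adjusted p = 0.0605; Pax6 0.32, adjusted p = 0.185), against 824 genes in all. Over the regions all 3 measured Y-linked genes were themselves called lower in KO (median difference -1.83). A part of sex in these differences therefore cannot be told apart from that of genotype, over the regions as in frontal tissue.

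**Figure D2:**
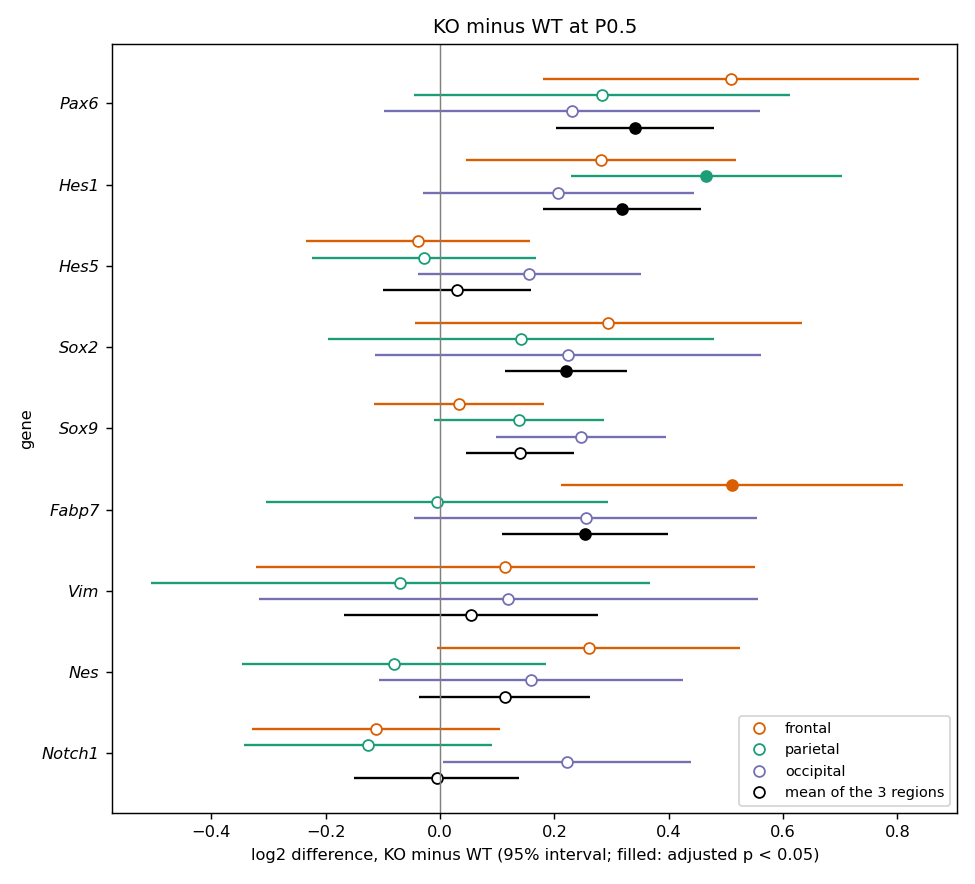
KO minus WT difference in log2 signal at P0.5 for the 9 radial glia genes, with 95% intervals, in frontal, parietal and occipital tissue (4 KO and 4 WT arrays each) and for the mean of the 3 regions (4 KO and 4 WT values); filled points have an adjusted p under 0.05. Pax6 and Hes1 lie to the right of 0 in all 3 regions, while Hes5 and Notch1 lie on both sides of it.

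In frontal tissue Fabp7 was the gene of the 9 that passed the test between KO and WT, and it was higher in KO. Over all genes 7.52% were called, and 4.7% were called higher in KO. Fabp7 was at 12.22, 11.53, 12.19 and 12.28 in KO arrays, against 11.94, 11.75, 11.36 and 11.12 in WT arrays. Of the KO arrays, 3 lay above all WT arrays and replicate 2 lay within the WT range. The difference was 0.51 (SE 0.146, limma adjusted p = 0.0309), or 1.43-fold.

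Pax6 had a frontal difference of the same size, 0.51 (SE 0.160), with an adjusted p of 0.05 after rounding that fell on the other side of the threshold. It was at 8.49, 7.77, 8.52 and 8.38 in KO arrays, against 8.35, 7.60, 7.48 and 7.69 in WT arrays. As for Fabp7, KO replicate 2 was the low KO array, and WT replicate 1 was the high WT array. Sox2 showed the same layout, at 9.88, 9.12, 9.64 and 9.88 in KO arrays and 9.76, 9.36, 9.09 and 9.15 in WT arrays, with a difference of 0.29 (SE 0.164, adjusted p = 0.236). Hes1 differed by 0.28 (SE 0.115, adjusted p = 0.12) and Nes by 0.26 (SE 0.129, adjusted p = 0.19). Nes was nearly constant among the frontal KO arrays (8.51 to 8.52), while its WT arrays were at 8.63, 8.11, 8.16 and 8.11. Vim (0.11), Sox9 (0.03), Hes5 (-0.04) and Notch1 (-0.11) were not called.

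The frontal call of Fabp7 was lost when KO array 1, 3 or 4 or WT array 3 or 4 was left out (0.37 to 0.47, limma adjusted p = 0.0831 to 0.173), and with the Y-linked mean as a covariate (0.46, adjusted p = 0.424). Leaving out frontal KO array 2 or frontal WT array 1 instead brought Pax6 past the threshold (0.70 without WT array 1, adjusted p = 0.003), and Nes was also called without WT array 1 (0.39, adjusted p = 0.0458). Meningeal signal split both frontal groups: its summed log2 signal was 12.02 and 12.23 in KO arrays 2 and 3, against 12.44 and 13.03 in WT arrays 1 and 4, and at most 10.70 in the other 4 frontal arrays. Leaving out the 8 P0.5 arrays with the highest meningeal signal, a choice made after seeing the data, kept 2 KO and 2 WT frontal arrays. In that fit 5 of the 9 genes were called higher in frontal KO: Pax6 (0.89, adjusted p = 7.87e-04), Fabp7 (0.69, adjusted p = 0.00114), Hes1 (0.58, adjusted p = 0.00785), Vim (0.69, adjusted p = 0.0103) and Sox2 (0.66, adjusted p = 0.0289). Over all genes 1522 were called, against 1499 in the main fit. The Y-linked mean was 5.09 and 5.99 in the KO arrays kept (1 and 4) and 9.02 and 8.99 in the WT arrays kept (2 and 3). Sex and genotype thus cannot be told apart there either. The part of meningeal tissue in the spread between frontal arrays was not tested beyond that fit.

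In parietal tissue Hes1 passed the test and was higher in KO, against a call rate of 1.81% over all genes and of 1.06% for higher calls. It was at 8.13, 8.35, 7.94 and 8.22 in KO arrays, against 7.58, 7.65, 7.84 and 7.70 in WT arrays. The groups did not overlap, as for 3.68% of all genes in this direction, and the difference was 0.47 (SE 0.115, limma adjusted p = 0.0281), or 1.38-fold. The call was lost without KO array 1, 2 or 4 or WT array 1, 2 or 4 (0.40 to 0.48, adjusted p = 0.0608 to 0.107) and with the Y-linked covariate (0.45, adjusted p = 0.0609).

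Hes5, the other Hes repressor, was at 9.11, 8.69, 9.30 and 9.09 in parietal KO arrays, against 9.20, 9.08, 8.98 and 9.04 in WT arrays. The WT arrays lay inside the KO range, and the difference was -0.03 (SE 0.095). Pax6 was at 8.43, 8.99, 8.72 and 8.504 in KO and 8.27, 8.37, 8.61 and 8.26 in WT, with a difference of 0.28 (SE 0.160, adjusted p = 0.673). Fabp7 was nearly equal in parietal tissue, averaging 12.20 ± 0.15 in KO against 12.21 ± 0.04 in WT (SD, n = 4 each), with a 95% interval of the difference from -0.30 to 0.29. Sox9 (0.14) and Sox2 (0.14) had positive differences, and Vim (-0.07), Nes (-0.08) and Notch1 (-0.13) negative ones, none of them called.

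In occipital tissue none of the 9 genes was called, against 1.34% of all genes (267 of 19938 genes in limma; 2153 at an unadjusted p under 0.05, among them 2 of the 9). All 9 differences were positive, between 0.12 for Vim and 0.25 for Fabp7, with a median of 0.22, against a median of 0.01 over all genes. Sox9 was at 8.69, 8.69, 8.60 and 8.64 in KO arrays, against 8.45, 8.32, 8.47 and 8.40 in WT arrays. Its groups did not overlap, and the difference was 0.25 (SE 0.072, limma adjusted p = 0.0999). Pax6 was at 8.55, 8.66, 8.58 and 8.64 in KO arrays and at 8.44, 8.38, 8.55 and 8.15 in WT arrays. Its KO arrays all lay just above the WT arrays, with a difference of 0.23 (SE 0.160, adjusted p = 0.653), and 3.76% of all genes had this layout. Notch1 differed by 0.22 (SE 0.105, adjusted p = 0.445).

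**Figure D3:**
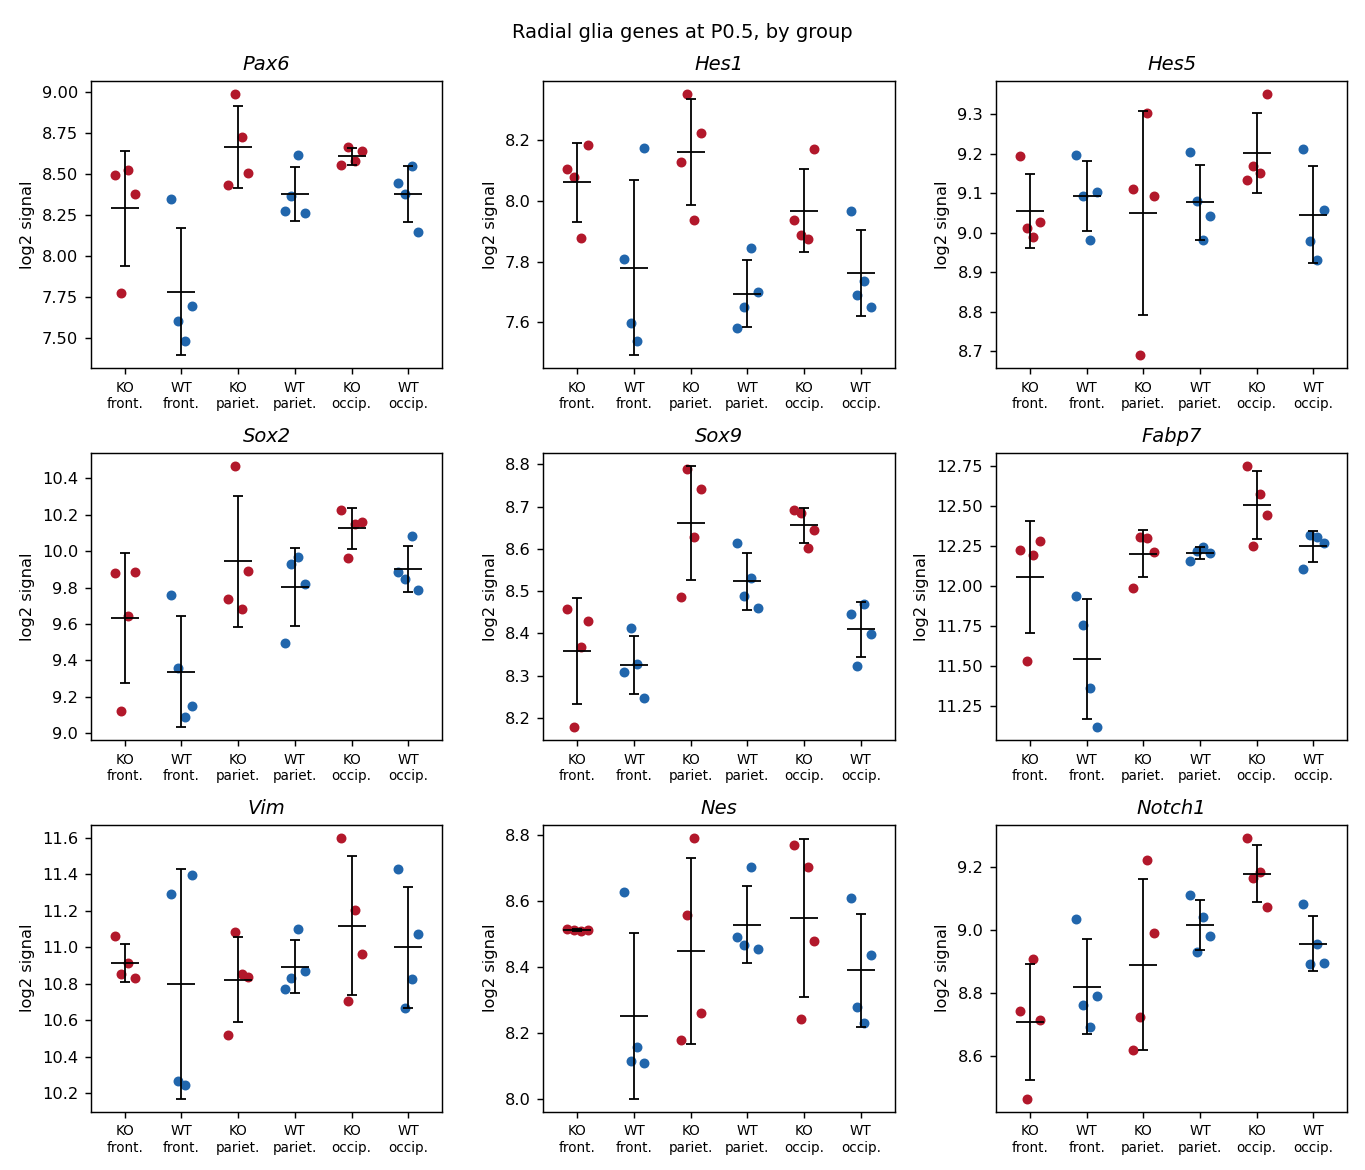
Log2 signal of the 9 radial glia genes at P0.5, with 1 point per array (4 per group), the mean as a horizontal bar and ±1 SD, KO left of WT within each region. Frontal WT arrays are the lowest group for Pax6, Sox2 and Fabp7, and Vim spreads from 10.24 to 11.40 among frontal WT arrays.

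The comparison of regions within a genotype asked whether these genes differ along the front-to-back axis of the newborn brain. In WT, 3 of the 9 genes were lower in frontal than in occipital tissue, Fabp7, Pax6 and Sox2, against 6.03% of all genes called and 3.77% called lower. Fabp7 was at 11.94, 11.75, 11.36 and 11.12 in frontal WT arrays, against 12.11, 12.31, 12.31 and 12.26 in occipital WT arrays. The groups did not overlap, as for 6.36% of all genes in this direction. The difference was -0.70 (SE 0.146, limma adjusted p = 0.00476), a 1.63-fold lower frontal level. The frontal WT arrays are the same ones that were compared with frontal KO tissue. The call held without each array in turn (-0.84 to -0.56).

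Sox2 was at 9.76, 9.36, 9.09 and 9.15 in frontal WT arrays and at 9.89, 9.85, 10.08 and 9.79 in occipital WT arrays. All frontal arrays lay below all occipital ones, with a difference of -0.56 (SE 0.164, limma adjusted p = 0.0417). Pax6 was at 8.35, 7.60, 7.48 and 7.69 in frontal and at 8.44, 8.38, 8.55 and 8.15 in occipital WT arrays. Frontal replicate 1 fell within the occipital range, and the difference was -0.60 (SE 0.160, adjusted p = 0.0276). Both calls were lost without frontal array 2, 3 or 4 or occipital array 2 or 3, and that of Sox2 also without occipital array 1 (Pax6 -0.60 to -0.50, adjusted p = 0.0577 to 0.0958; Sox2 -0.58 to -0.48, adjusted p = 0.0537 to 0.143). With the 8 arrays of high meningeal signal left out, the differences were -0.92 for Pax6, -0.75 for Fabp7 and -0.74 for Sox2, and all 3 were called. In a fit of only the 8 WT arrays compared, Fabp7 was called (adjusted p = 0.03), and Sox2 (adjusted p = 0.0546) and Pax6 (adjusted p = 0.0901) were not. Hes1 (0.02), Hes5 (0.05), Sox9 (-0.08), Notch1 (-0.14), Nes (-0.14) and Vim (-0.20) were not called.

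In KO, Notch1 and Sox9 were lower in frontal than in occipital tissue, against 3.22% of all genes called and 1.76% called lower. Notch1 was at 8.74, 8.47, 8.91 and 8.71 in frontal KO arrays, against 9.29, 9.17, 9.18 and 9.07 in occipital KO arrays. The groups were well apart, and Notch1 fell by 0.47 (SE 0.105, limma adjusted p = 0.00923). Sox9 was at 8.46, 8.18, 8.37 and 8.43 in frontal and 8.69, 8.69, 8.60 and 8.64 in occipital KO arrays, a difference of -0.30 (SE 0.072, adjusted p = 0.0174). Pax6 (-0.32, adjusted p = 0.369) and Sox2 (-0.49, adjusted p = 0.112) also had every frontal array below every occipital array, as did 5.33% of all genes, without passing the test. Fabp7 differed by -0.45 (SE 0.146, adjusted p = 0.099).

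The Notch1 call held without each array in turn (-0.54 to -0.39), and that of Sox9 was lost without frontal KO array 2 (-0.24, limma adjusted p = 0.0847) or occipital KO array 1 or 2 (-0.29 for each, adjusted p = 0.0514 and 0.0525). Neither was called with the Y-linked covariate (Notch1 -0.42, adjusted p = 0.154; Sox9 -0.34, adjusted p = 0.0642) or without the arrays of high meningeal signal (Notch1 -0.41, adjusted p = 0.0589; Sox9 -0.20, adjusted p = 0.17). Between the KO groups the Y-linked mean was 5.39 ± 0.41 in frontal and 8.35 ± 1.65 in occipital tissue (SD, n = 4 each).

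**Figure D4:**
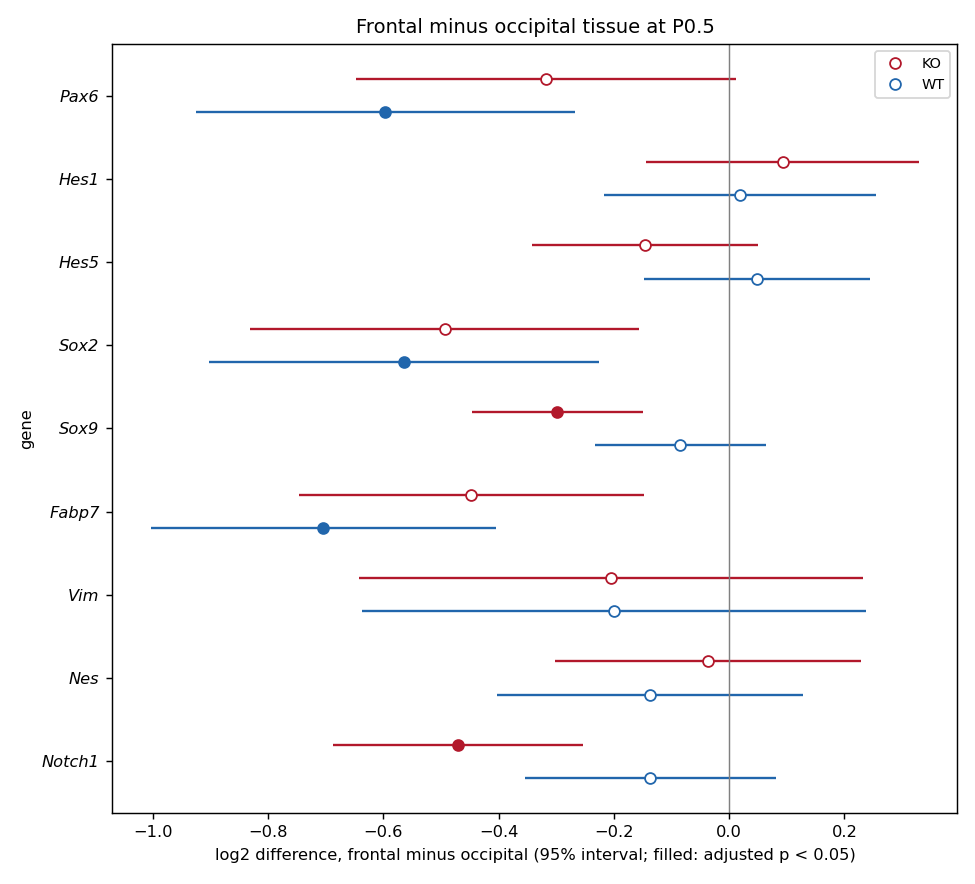
Frontal minus occipital difference in log2 signal at P0.5 for the 9 radial glia genes, with 95% intervals, in KO and in WT (4 arrays per region and genotype); filled points have an adjusted p under 0.05. Pax6, Sox2 and Fabp7 are filled in WT and Sox9 and Notch1 in KO, while the intervals of the 2 genotypes overlap for every gene.

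Whether the regional difference itself differed between KO and WT was tested with an interaction. None of the 9 genes was called for frontal against occipital tissue, where 0.416% of all genes were (83 of 19938 genes in limma; 4017 at an unadjusted p under 0.05, among them 2 of the 9). The 2 were Notch1 (-0.33, SE 0.149, adjusted p = 0.224) and Sox9 (-0.21, SE 0.102, adjusted p = 0.244), whose fitted regional difference was larger in size in KO. For Pax6 (0.28, SE 0.226) and Fabp7 (0.26, SE 0.206) the difference was nominally smaller in KO, with 95% intervals from -0.19 to 0.74 and from -0.17 to 0.68. Both were called in the fit without the arrays of high meningeal signal (Pax6 0.73, adjusted p = 0.0358, and Fabp7 0.58, adjusted p = 0.0364), which rests on 2 arrays in each frontal group. That fit called 1993 genes in all for this interaction, against 83 in the main fit, so calls rose widely and not only for these 2 genes. For frontal against parietal tissue none of the 9 was called (0.01% of all genes; 1620 genes at an unadjusted p under 0.05), and Fabp7 had the lowest p (0.52, SE 0.206, adjusted p = 0.575). For parietal against occipital tissue none was called either (0.01% of all genes; 784 genes at an unadjusted p under 0.05), with Notch1 at -0.35 (SE 0.149, adjusted p = 1.0).

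Neighbouring regions were compared in the same way. In KO, none of the 9 genes was called between frontal and parietal tissue (0.236% of all genes called; 1617 genes and 2 of the 9 at an unadjusted p under 0.05). Sox9 was closest, with frontal KO arrays all below the parietal ones at 8.49, 8.79, 8.63 and 8.74 (2.37% of all genes) and a difference of -0.30 (SE 0.072, limma adjusted p = 0.0806), which was called without parietal KO array 1 (-0.36, adjusted p = 0.0402). In WT, none was called between frontal and parietal tissue (0.171%; 2568 genes and 5 of the 9 at an unadjusted p under 0.05). Fabp7 was at 12.15, 12.22, 12.24 and 12.21 in parietal WT arrays, all above the frontal arrays (2.82% of all genes), with a difference of -0.66 (SE 0.146, adjusted p = 0.059), and Pax6 differed by -0.60 (SE 0.160, adjusted p = 0.148). Without frontal WT array 1 both were called (Fabp7 -0.79, adjusted p = 0.00974; Pax6 -0.79, adjusted p = 0.0104). Between parietal and occipital tissue none of the 9 was called in KO (0.351% of all genes; 1403 genes and 2 of the 9 at an unadjusted p under 0.05) or in WT (0.451%; 1527 genes and 0 of the 9). There Notch1 in KO differed by -0.29 (SE 0.105, adjusted p = 0.424), and the WT differences lay between -0.11 and 0.14.

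Ordered by group mean at P0.5, the frontal WT group was the lowest of the 6 for Pax6 (7.78 ± 0.39), Sox2 (9.34 ± 0.30), Sox9 (8.32 ± 0.07), Fabp7 (11.54 ± 0.37), Vim (10.80 ± 0.63) and Nes (8.25 ± 0.25; SD, n = 4 each). The occipital KO group was the highest for Hes5 (9.20 ± 0.10), Sox2 (10.13 ± 0.11), Fabp7 (12.50 ± 0.21), Vim (11.12 ± 0.38), Nes (8.55 ± 0.24) and Notch1 (9.18 ± 0.09). Pax6, Hes1 and Sox9 were highest in parietal KO tissue, at 8.66 ± 0.25, 8.16 ± 0.17 and 8.66 ± 0.13. Most neighbours in these orders did not differ beyond their spread. The gap to the next group exceeded the larger SD of the 2 neighbours at 2 of 5 steps for Pax6, Sox9 and Fabp7, at 1 step for Hes5 and Notch1, and at 0 steps for Hes1, Sox2, Vim and Nes. For Pax6 and Fabp7 the last step, between frontal KO and frontal WT tissue, was 1.31 and 1.38 times the larger SD. For Hes1 the 3 KO groups were the 3 highest.

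The 9 genes did not vary as 1 unit over the 24 P0.5 arrays. Pax6, Sox2 and Fabp7 varied most alike: Pearson's r was 0.879 for Pax6 with Sox2, 0.869 for Sox2 with Fabp7 and 0.819 for Pax6 with Fabp7. With group means subtracted these were 0.803, 0.731 and 0.639, so these genes also varied together among arrays of the same group. Hes5 correlated with Notch1 (0.495) and with no other of the genes beyond 0.206. Hes1 correlated at 0.395 with Pax6 and at -0.034 with Hes5. These are descriptions over arrays that share tissue, dissection and normalisation.

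Over the same 24 arrays, the genes most like the mean of the 9 were Dbi (r = 0.903), Ezr (0.897), Qk (0.884), Plpp3 (0.884) and Msi2 (0.878). With group means subtracted they were Ezr (0.883), Acot1 (0.856), Eomes (0.847), Dbi (0.827) and Msi2 (0.824). Dbi encodes the diazepam-binding inhibitor, an acyl-CoA binding protein, Ezr the membrane linker ezrin, Qk and Msi2 RNA-binding proteins, and Eomes the T-box factor Tbr2 of intermediate progenitors.

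Calls among other genes of the Notch pathway differed by comparison. Of 27 listed ligands, receptors, co-factors and targets, 26 were measured at P0.5. Over the regions 0 were higher and 1 was lower in KO, Maml3, a co-activator of the Notch complex (-0.20, SE 0.054, limma adjusted p = 0.0348), which is 3.85% against 7.46% of all genes, and the median was -0.04, against -0.01 for all genes. In frontal tissue 3 of 26 were called (11.5%, against 7.52% of all genes): Maml3 (-0.31, adjusted p = 0.0261) and Maml2 (-0.27, adjusted p = 0.0272) were lower in KO and Ncstn, a subunit of the secretase that cleaves Notch, was higher (0.26, adjusted p = 0.0398). Between frontal and occipital KO tissue 3 of 26 were lower (11.5%, against 3.22% of all genes called), apart from Notch1: the ligand Dll1 (-0.35, adjusted p = 0.00525), the feedback inhibitor Nrarp (-0.41, adjusted p = 0.00653) and the receptor Notch2 (-0.67, adjusted p = 0.0407). In WT 1 of the 26 was lower, Notch2 (-0.74, adjusted p = 0.0171), or 3.85%, against 6.03% of all genes. The interaction called 0 of the 26. In E14.5 neocortex 0 of 25 measured were called, with a median of 0.07, against 0.06 for all genes.

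Of 20 other listed radial glia genes, 8 were higher and 1 was lower in KO over the regions, with a median of 0.18, against -0.01 for all genes. The share called was 45%, against 7.46% of all genes. The 3 with the smallest p were Ptprz1, a receptor phosphatase (0.46, SE 0.040, limma adjusted p = 6.88e-06), Ttyh1, a membrane protein (0.44, SE 0.070, adjusted p = 0.00107), and Mt3, a metallothionein (0.39, SE 0.070, adjusted p = 0.00268). Between frontal and occipital tissue 6 of the 20 were lower in KO (30%, against 3.22% of all genes called) and 8 in WT (40%, against 6.03%). Fgfr3, a growth factor receptor with a graded level along the cortex, was lower in both (-0.50 in KO, adjusted p = 3.55e-04, and -0.52 in WT, adjusted p = 2.64e-04). At E14.5 0 of the 20 were called.

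Several of the genes are also made by other cell types, among them astrocytes. Of 7 listed astrocyte genes 5 were higher in KO over the regions and none was lower (71.4% called, against 7.46% of all genes). Among the 5 were the water channel Aqp4 (0.65, SE 0.072, limma adjusted p = 5.8e-05) and the enzymes Aldoc (0.78, SE 0.100, adjusted p = 1.92e-04) and Aldh1l1 (0.54, SE 0.090, adjusted p = 0.00148). The summed log2 signal of the 7 was 11.62 to 12.44 in frontal KO arrays, against 10.98 to 12.13 in frontal WT arrays, and 12.54 to 12.73 in occipital KO arrays, against 11.91 to 12.35 in occipital WT arrays. In parietal tissue it was 12.14 to 12.38 in KO and 11.74 to 11.92 in WT. Over the 24 arrays this sum correlated with Pax6 (r = 0.700), Fabp7 (0.669) and Sox2 (0.660). The other members, called or not, also correlated positively with it, from 0.329 (Hes5) to 0.551 (Vim). Of the listed genes, Aldoc and Gja1 were already bright at E14.5, above 98.7% and 88.7% of genes (medians over arrays), so the sum need not be of astrocytes alone. The part of astrocyte content in the KO differences was not tested.

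Over the regions 7.46% of all genes were called and 4.71% were called higher in KO. No listed marker of dividing cells or of intermediate progenitors was called higher, which in lists this short is near that share. Of 13 cell division genes 0 were called (median -0.08). Of 12 intermediate progenitor genes 1 was called (8.33%), Igfbpl1, which was lower in KO (-0.34). Vim, by contrast, correlated with the summed cell division signal (r = 0.660) and with the summed meningeal signal (0.558), while Pax6, Sox2 and Fabp7 correlated negatively with the meningeal sum (-0.295, -0.352 and -0.348). Correlations with the summed signal of 7 blood vessel genes were further below 0, at -0.509 for Pax6, -0.489 for Sox2, -0.550 for Fabp7 and -0.595 for Sox9. The 7 meningeal genes had 0 calls over the regions, with a median difference of -0.44. Among the blood vessel genes 1 was called (14.3%), Kdr, lower in KO (-0.66, limma adjusted p = 0.00837). The mean of their summed log2 signal was 10.90 in KO and 11.41 in WT arrays of frontal tissue, 10.62 and 10.87 in KO and WT arrays of parietal tissue, and 10.81 and 11.09 in KO and WT arrays of occipital tissue. The part of vessel and meningeal content in the KO differences was not tested.

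**Figure D5:**
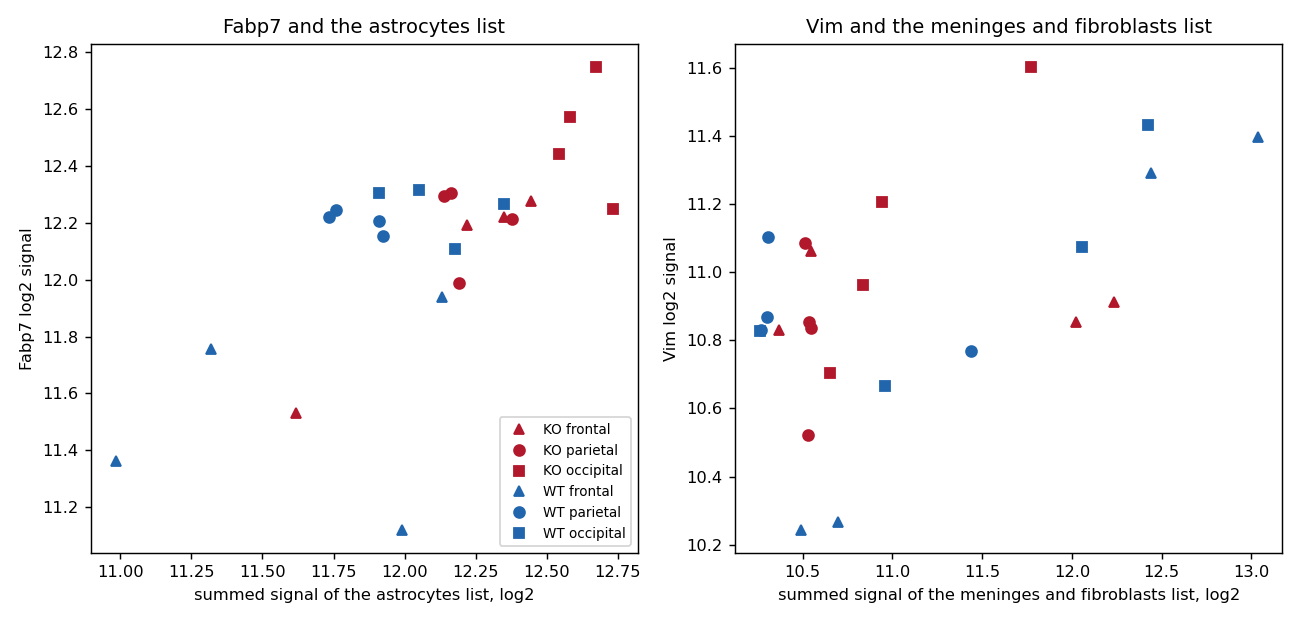
Log2 signal of Fabp7 against the log2 summed signal of 7 astrocyte genes (left) and of Vim against that of 7 meningeal and fibroblast genes (right), with 1 point per P0.5 array, colours for genotype and shapes for region. Fabp7 is high where the astrocyte sum is high (r = 0.669 over 24 arrays), and the arrays with a high meningeal sum include frontal KO arrays 2 and 3 and frontal WT arrays 1 and 4.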

How the data were processed

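RNA from 30 mouse tissues was measured on Affymetrix arrays. The deposited values are log2 signals per probe set. The submitters' processing notes name Affymetrix Expression Console 1.1 and RMA, and they were not normalised again. Per the labels' protocols the arrays were Gene 1.0 ST, but the E14.5 probe sets carry names of an older design, so each stage was fitted apart. Symbols came from the platform annotation. At E14.5 34958 of 45101 probe sets named 1 gene (932 several, 9211 none), and at P0.5 21789 of 35557 (1621 several, 12147 none). All 9 genes have 1 probe set at P0.5. At E14.5 Pax6 has 5, Sox9, Vim and Nes have 3, Hes5 and Notch1 have 2 and the others have 1.

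Groups were compared with limma 3.58.1 in R 4.3.3 (two-sided moderated tests, empirical Bayes with intensity trend), with Benjamini-Hochberg adjustment over all genes of a comparison and a threshold of 0.05. The 6 P0.5 groups shared 1 fit of 24 arrays. The fit was tested on simulated data with changes of 0.5 and 1 log2 units. At E14.5 9% and 45% of these changes were called, so most changes of 0.5 would be missed there. The share was 77% and 100% for frontal KO against WT and for frontal against occipital tissue in WT. Over the regions it was 99% and 100%. Summed marker signals are the log2 of summed linear signals. Alternatives were another rule for probe sets, no dim genes, subtracted array medians, no trend, array weights, a Y-linked covariate, a fit of only the arrays compared, the replicate number as a block and leaving out each array. One more, leaving out arrays of high meningeal signal, was added after the data were seen, as was a comparison over the regions without averaging by number. All 9 genes are named in every comparison, and at most 3 of each other list, those with the smallest p.

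Same-numbered arrays were taken as paired where every correlation of their deviations from the group means was over 0.1. That held for E14.5 KO and WT (0.125 to 0.445) and for WT parietal and occipital tissue (0.124 to 0.276), and for no other groups compared. The 9 genes and the lists were chosen with earlier results of these data known.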

Additional observations from a re-analysis of the deposited data

Results flagged for a closer look

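Among 54 combinations of a P0.5 group with 1 of the 9 genes, 4 had an array far from the other 3 of its group, where chance flags about 1 in 20 groups. Fabp7 was at 11.5 in frontal KO replicate 2, against 12.2 to 12.3 in the other frontal KO arrays; the summed astrocyte signal was also lowest in that array of its group (11.62, against 12.22 to 12.44), and its meningeal signal was high. Nes was at 8.63 in frontal WT replicate 1, against 8.11 to 8.16 in the other frontal WT arrays, and at 8.70 in parietal WT replicate 3, against 8.45 to 8.49. Hes5 was at 9.35 in occipital KO replicate 4, against 9.13 to 9.17 in the other occipital KO arrays. What set these arrays apart was not tested.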

How the results depend on the processing

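For frontal KO against WT the main fit called 1 of the 9 genes. The count was 2 with the mean of probe sets, with the dimmest 30% of genes left out and with array medians subtracted, 3 with array weights, 5 without the arrays of high meningeal signal, and 0 with the Y-linked covariate, with only the arrays compared and with the replicate block. Over all genes, 2606 were called with array weights, 1522 without the arrays of high meningeal signal and 247 with the Y-linked covariate, against 1499 in the main fit. With only the arrays compared 687 were called, and with the replicate block 481. The mean of probe sets gave 1514, leaving out dim genes 1463 and subtracting array medians 1529. For parietal KO against WT the count of the 9 was 0 with the Y-linked covariate and 0 with the replicate block, against 1. Over all genes these fits called 293 and 359, against 361. Over the regions the count of the 9 was 0 with the Y-linked covariate, with arrays averaged by number or not, and 3 without averaging by number, against 4. Over all genes 71 (averaged) and 824 (not averaged) were called with that covariate, and 1891 without averaging by number, against 1488. For frontal against occipital tissue in KO the main fit called 2 of the 9 and 643 over all genes. The count was 1 with array medians subtracted (553 over all genes), 0 with the Y-linked covariate (247) and 0 without the arrays of high meningeal signal (1075). In WT it was 1 with only the arrays compared, against 3 (287 over all genes, against 1202). For frontal against parietal tissue the main fit called 0 of the 9 in either genotype. In KO the count was 1 with array weights (730 over all genes, against 47 in the main fit). In WT, where the main fit called 34 over all genes, it was 2 with array weights (134 over all genes), 1 with the replicate block (69) and 3 without the arrays of high meningeal signal (88). The interaction of frontal against occipital tissue gave 2 without the arrays of high meningeal signal, against 0, and 1993 over all genes, against 83. The cause was not tested for these.

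When each array was left out in turn, the count ranged from 0 to 3 for frontal and 0 to 1 for parietal KO against WT, from 2 to 4 over the regions, from 1 to 2 in KO and 1 to 3 in WT for frontal against occipital tissue, and from 0 to 1 in KO and 0 to 2 in WT for frontal against parietal tissue. It stayed at 0 for E14.5, occipital KO against WT, both comparisons of parietal with occipital tissue and the 3 interactions.

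With the replicate number as a block, the paired E14.5 arrays and the paired WT parietal and occipital arrays still gave 0 calls. In the groups that share only a number, the block ended the calls of Fabp7 in frontal tissue (0.51, limma adjusted p = 0.17) and over the regions (0.25, adjusted p = 0.0623), of Hes1 in parietal tissue (0.47, adjusted p = 0.0529) and of Sox9 between KO regions (-0.30, adjusted p = 0.0505). Without the intensity trend Fabp7 over the regions had an adjusted p of 0.0585.

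Over all alternatives, called genes were still called in 130 of 187 values and changed sign in 0. Genes not called in the main fit became called in 28 of 2135 values and changed sign in 129, by at most 0.478 on either side of 0. The meningeal alternative left 2 arrays in each frontal group and was not run at E14.5 or over the regions. Detection calls were not used here, so how far a probe set lies over background is unknown.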

Other observations

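Markers of other cells of the newborn brain were compared between genotypes over the 3 P0.5 regions, where 7.46% of all genes were called. Of 6 measured oligodendrocyte lineage genes 2 were higher in KO, the myelin genes Cnp (0.29, SE 0.054, limma adjusted p = 0.00404) and Mbp (0.22, SE 0.045, adjusted p = 0.00797). Of 5 ependymal genes 1 was lower, the axonemal dynein Dnah5 (-0.19, SE 0.054, adjusted p = 0.0466), and of 7 choroid plexus genes 0 were called. Of 8 measured striatal and ventral progenitor genes the dopamine receptor Drd1 was lower in KO (-0.91, SE 0.064, adjusted p = 1.07e-06), and the neuropeptide precursor Penk (0.46, SE 0.093, adjusted p = 0.00609) and the dopamine receptor Drd2 (0.21, SE 0.055, adjusted p = 0.031) were higher.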
